A study of Papio anubis with 588 samples.

Results

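Liver and adipose tissue of the same olive baboons (Papio anubis, a monkey kept here in captivity) were compared by RNA sequencing while the animals ate a low cholesterol, low fat diet, abbreviated LCLF, at 0 years of the diet study. The libraries were chosen as every liver and adipose library taken at 0 years from an animal with both tissues in the counts kept after quality control. This gave 95 liver and 95 adipose libraries from 95 of 99 animals, or 190 of the 570 libraries kept. All animals of both groups shared the species and the LCLF diet, and they were later moved to a high cholesterol, high fat diet whose libraries were not used. The sources used here do not give strain, age, sex or adipose depot. Each library holds RNA of a whole frozen tissue piece, with every cell type in it.

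The hepatocyte, the main cell of the liver, makes most plasma proteins, packages triglyceride and cholesterol into lipoproteins, makes bile acids and urea, and releases glucose and ketone bodies between meals. The adipocyte takes up fatty acids from circulating lipoproteins, stores them as triglyceride in a large droplet, releases them by lipolysis under hormonal control, and secretes adipokines such as leptin and adiponectin. Both tissues can make fatty acids, answer to insulin and hold endothelial cells, fibroblasts and macrophages of their own kinds.

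The depth was 6594120 to 32698163 assigned counts in liver libraries, with a median of 19511147, and 6506614 to 31094145 in adipose libraries, with a median of 18239130. The labels describe 2 sequencing batches but do not say which animal belonged to which. The main axis of variation among animal means carried 20.4% of the variance and set 15 animals apart from the other 80, and these are called batch 1 and batch 2 below. An animal's liver and adipose libraries share a batch here because the batches were read from the mean over both tissues, and the labels likewise count batches in animals. Folds within a batch come from limma voom. Of 291 named genes that passed the test and had a value in both batches, 0 had opposite signs in the batches. For 125 of 298 genes the folds of the batches differed by over 1.5 times, and for 122 of these the larger was in batch 2. Over all animals the folds of edgeR and limma voom differed by over 1.5 times for 29 of the 298. Deviations from the tissue mean were shared by the liver and adipose libraries of an animal, with a median correlation of 0.393 against -0.0129 for libraries of different animals. Gene levels are in CPM, which is counts divided by the library total after trimmed mean of M-values scaling and given per 1e+06 counts. No level is compared between genes, since CPM does not account for transcript length. Folds are liver over adipose, tested by edgeR's quasi-likelihood method in a fit that held a term for each animal, with p-values adjusted by Benjamini-Hochberg over 16580 genes, and their errors are standard errors (SE). Each log2 fold change given below passed an adjusted p of 0.05 unless its own adjusted p or the words "did not pass" stand beside it.

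The marker genes went with the tissue labels in every library kept. Transcripts of 12 hepatocyte markers made up 16.0 to 25.9% of the counts in liver libraries, with a median of 20.9%, and 0.000559 to 0.0795% in adipose libraries, with a median of 0.0023%. In every animal the liver library was far above the adipose library. The 9 adipocyte markers took 0.00531 to 0.0366% of liver counts (median 0.0194%) and 0.209 to 2.75% of adipose counts (median 1.25%), so the tissues did not overlap in either marker sum. In both cases the permutation p over 100000 sign flips of the animals' differences was 1e-05, the smallest they can give. Fewer cells of a type and less RNA per cell cannot be told apart in bulk tissue, here and in every result that follows. ALB, which encodes albumin, was the most abundant gene of the liver and took 8.16 to 20.1% of liver counts (median 13.5%), against 7.56e-05 to 0.0545% of adipose counts (median 0.000308%). Its adipose share had a median of 0.0147% in batch 1 and 0.000284% in batch 2. What part liver RNA in adipose libraries had in that difference was not tested.

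Liver counts were concentrated in few genes. The 10 most abundant genes of a library took 19.7 to 31.4% of liver counts (median 26.1%) and 3.81 to 11.2% of adipose counts (median 4.85%), with no overlap. For the 50 most abundant genes the medians were 43.5% in liver and 12.5% in adipose. The scaling removes this tilt: its factors were 1.38 lower in liver than in adipose on the log2 scale, and with library totals in place of these factors the median log2 fold change of all genes moved to -1.38. Directions of small differences therefore depend on the scaling. The named genes that turned are given beside their results or in the last section. A list without such a remark may also turn.

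Almost every gene tested differed between the tissues. At an adjusted p under 0.05, 7699 of 16580 genes were higher in liver, which is 46.4%, and 7702 were higher in adipose, which is 46.5%. A difference of at least 2-fold was called for 3552 genes toward liver (21.4%) and 4400 toward adipose (26.5%). All 95 liver libraries lay above all 95 adipose libraries for 1405 genes (8.47%), and all lay below for 1032 genes (6.22%). Very large differences were more often toward liver: 526 genes (3.17%) were at least 100-fold higher in liver and 152 (0.917%) at least 100-fold higher in adipose. A mean of 1 CPM or more was reached in both tissues by 12872 genes, in liver alone by 1229 and in adipose alone by 1551. These shares are the background against which the counts of each gene list below should be read. A gene near 0 in 1 tissue passes the count filter through the other tissue alone, so its direction was set in advance.

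**Figure D1:**
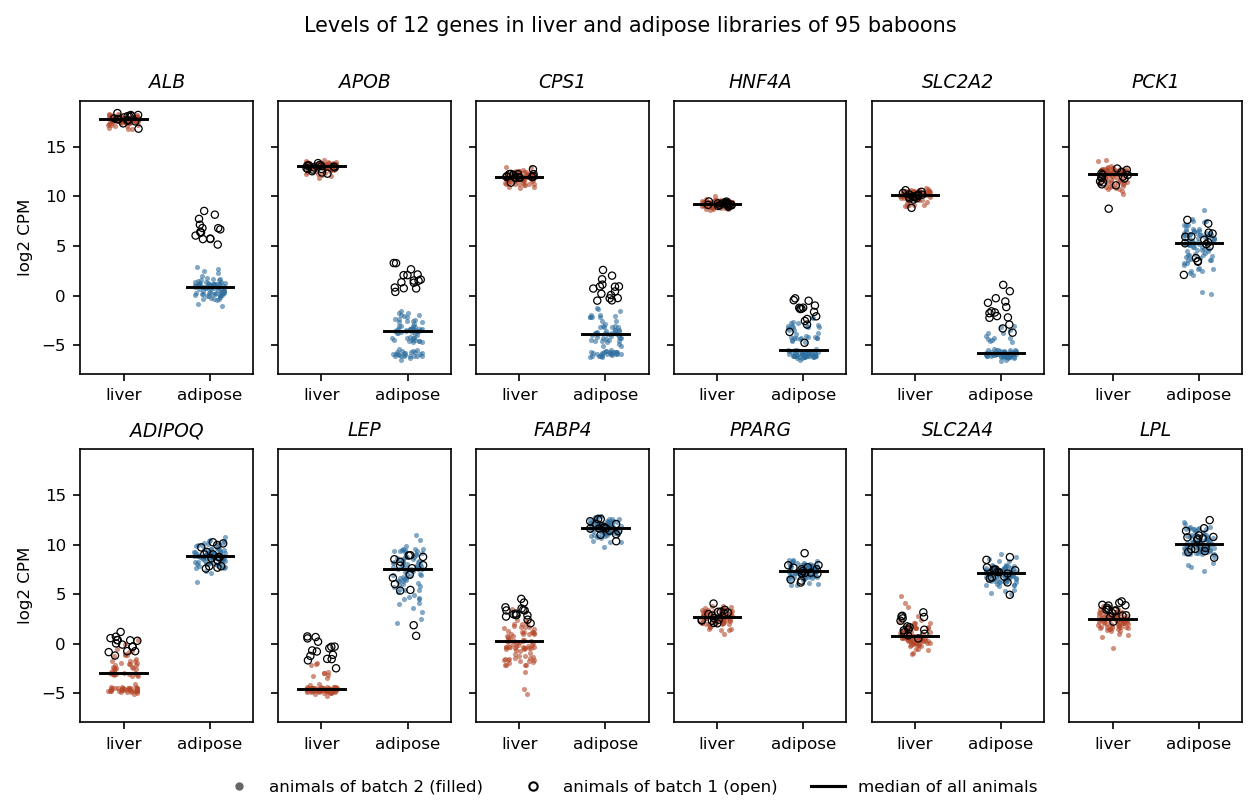
Log2 CPM of 12 genes that define hepatocytes (ALB, APOB, CPS1, HNF4A, SLC2A2, PCK1) or adipocytes (ADIPOQ, LEP, FABP4, PPARG, SLC2A4, LPL), with liver at the left and adipose at the right of each panel; a circle is 1 library (open, batch 1; filled, batch 2) and the line is the median of all 95. No library of one tissue reaches the range of the other for any of the 12 genes.

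Genes for secreted plasma proteins made the sharpest contrast. All 24 tested genes for plasma carriers and protease inhibitors were higher in liver, with no overlap between the tissues for any of them and a median log2 fold change of 13.1, beside 0.0 for all genes. ALB ranged from 114607 to 343275 CPM in liver (median 223231) and from 0.468 to 369.7 CPM in adipose (median 1.86). Its log2 fold change was 16.32 ± 0.81 (adjusted p = 2.5e-36). AMBP, the precursor of alpha-1-microglobulin and bikunin, had 7208 to 19819 CPM in liver (median 13845) and 0 to 21.9 CPM in adipose (median 0.0539), a log2 fold change of 16.22 ± 0.40. The acute-phase protein genes ORM1 and CRP followed at 15.90 ± 0.40 and 15.21 ± 0.34.

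The size of such folds depends on the few counts in adipose. The 15 genes with the largest differences toward liver had log2 fold changes of 15.2 to 16.45 over all animals, 10.68 to 11.35 in batch 1 and 16.86 to 18.2 in batch 2. The 15 toward adipose ran from -12.17 to -8.64 over all animals, from -9.12 to -7.54 in batch 1 and from -12.91 to -9.19 in batch 2. The direction was the same in both batches for each of these 30 genes, and the cause of the difference in size was not tested.

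Clotting genes were divided between the tissues. Of 27 coagulation and fibrinolysis genes, 20 were higher in liver and 7 higher in adipose, all by at least 2-fold. The 3 fibrinogen chain genes stood highest: FGA had 5549 to 46208 CPM in liver (median 17672) and 0 to 32.1 CPM in adipose (median 0.0547), and FGA, FGB and FGG had log2 fold changes of 16.45 ± 0.42, 16.43 ± 0.42 and 16.15 ± 0.40. KNG1, the kininogen precursor, was at 15.09 ± 0.31. The genes on the other side include products of endothelial and blood-derived cells. VWF, the platelet-tethering protein of endothelium, had 3.42 to 92.1 CPM in liver (median 15.5) and 194.3 to 748.4 CPM in adipose (median 395.9), a log2 fold change of -4.67 ± 0.10. The plasminogen activator genes PLAT and PLAU were at -7.07 ± 0.13 and -4.29 ± 0.10, and F13A1, the factor XIII subunit of macrophages and platelets, was at -4.21 ± 0.11.

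Complement showed the same division. Among 25 genes, 18 were higher in liver and 7 in adipose. Genes of the membrane attack complex were liver genes, with C8A at 14.20 ± 0.21, C8B at 13.82 ± 0.22 and C9 at 11.85 ± 0.16, and so was MBL2, the mannose-binding lectin that starts the lectin pathway, at 14.42 ± 0.23. C7, another part of the attack complex, went the other way, with 96.6 to 974.7 CPM in liver (median 214.7) and 108.5 to 1913 CPM in adipose (median 692.4). The ranges overlapped, 83 of 95 animals had more in adipose, and the log2 fold change was -1.53 ± 0.10 (adjusted p = 1.8e-26). CD59, a cell-surface inhibitor of the attack complex, was lower in liver in all 95 animals (-1.85 ± 0.03), and FCN1, a ficolin of monocytes, was at -4.23 ± 0.18. C1QA, a macrophage product, was at -1.08 ± 0.12, but at -0.45 in batch 1, where it did not pass the test.

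Lipoprotein genes were mostly higher in liver. Of 25 genes, 19 were higher in liver and 6 in adipose, with a median of 11.12. APOB, the structural protein of very low density and low density lipoproteins, had 3749 to 12781 CPM in liver (median 8596) and 0 to 9.69 CPM in adipose (median 0.0666), a log2 fold change of 15.53 ± 0.35. APOA2, APOC3 and APOC2 were at 15.80 ± 0.37, 15.20 ± 0.32 and 15.13 ± 0.32, and APOA1, the main protein of high density lipoprotein, at 11.12 ± 0.17. LPL, the lipase that frees fatty acids from circulating triglyceride, had 0.7 to 19.1 CPM in liver (median 5.71) and 160.9 to 5630 CPM in adipose (median 1078), a log2 fold change of -7.65 ± 0.16 or 201-fold more in adipose. GPIHBP1, which carries LPL across capillary endothelium, was at -6.57 ± 0.11. APOE was made in both tissues, with 3932 to 14314 CPM in liver (median 7397) and 374.5 to 3245 CPM in adipose (median 1096), a 6.68-fold difference without overlap. APOD and PLTP, the phospholipid transfer protein, were higher in adipose, at -5.00 ± 0.16 and -3.60 ± 0.08.

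Genes of nitrogen disposal were higher in liver almost throughout. Of 15 urea cycle and related genes tested, 14 were higher in liver and 1 did not pass the test, with a median of 6.95. CPS1, the first and committed enzyme of the cycle, had 1865 to 8123 CPM in liver (median 3926) and 0 to 5.96 CPM in adipose (median 0.0453). Its log2 fold change was 14.67 ± 0.29 (adjusted p = 2.97e-71). ARG1, which splits off urea, OTC, which makes citrulline, and NAGS, which makes the activator of CPS1, were at 13.95 ± 0.24, 13.39 ± 0.19 and 10.22 ± 0.16. ARG2, the mitochondrial arginase usually found outside the liver, was also higher in liver, with 0.247 to 334.3 CPM in liver (median 11.6) and 0.182 to 3.63 CPM in adipose (median 0.993), in 94 of 95 animals (3.78 ± 0.21).

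Amino acid breakdown followed the same pattern, with 47 of 49 genes higher in liver, 1 higher in adipose and a median of 5.18. MAT1A, the liver methionine adenosyltransferase, was at 15.09 ± 0.32, AGXT, the alanine-glyoxylate aminotransferase, at 14.85 ± 0.31 and TAT, the tyrosine aminotransferase, at 14.05 ± 0.26. The exception was BCAT1, a cytosolic transaminase of branched-chain amino acids, with 0 to 4.98 CPM in liver (median 0.569) and 5.3 to 28.7 CPM in adipose (median 16.2), a log2 fold change of -4.52 ± 0.13 with no overlap.

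Bile acid genes were higher in liver without exception among the 18 tested, with no overlap for 16 of them and a median of 9.25. AKR1D1, a reductase of the synthesis pathway, had 123.7 to 1468 CPM in liver (median 761.7) and 0 to 1.16 CPM in adipose (median 0), a log2 fold change of 13.71 ± 0.22. The uptake carrier SLCO1B3 and the canalicular export pump ABCB11 were at 13.70 ± 0.19 and 12.85 ± 0.21, and BAAT, which joins bile acids to taurine or glycine, at 11.05 ± 0.12. CYP7A1 was not analysed here. Of 25 genes of drug and retinoid metabolism, 22 were higher in liver and 3 in adipose. CYP2C8, a cytochrome P450, was at 15.54 ± 0.32, the sulfotransferase gene SULT2A1 at 14.38 ± 0.26 and the glucuronosyltransferase gene UGT2B15 at 14.13 ± 0.23. Reads of such multigene families can be split between near-identical copies, so these single-gene values are uncertain. The 3 exceptions were glutathione transferase genes, GSTP1 at -3.96 ± 0.08, GSTA4 at -3.30 ± 0.07 and GSTM3 at -2.59 ± 0.07.

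Iron genes were liver genes in 14 of 15 cases. HAMP, which encodes hepcidin, the hormone that limits iron release, had 189.1 to 2509 CPM in liver (median 1024) and 0 to 2 CPM in adipose (median 0.256), a log2 fold change of 11.57 ± 0.22. HPX, the haem carrier hemopexin, TFR2, an iron sensor, and CP, the ferroxidase ceruloplasmin, were at 14.46 ± 0.27, 13.79 ± 0.23 and 11.74 ± 0.20. The exception was BMP6, a ligand that induces hepcidin and is known in mouse liver as an endothelial product, with 0.225 to 7.29 CPM in liver (median 2.06) and 12.5 to 49.4 CPM in adipose (median 24.0), a log2 fold change of -3.57 ± 0.10. So the hormone and this ligand lay on opposite sides, without overlap for either.

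Transcription factors known to drive hepatocyte genes were higher in liver with 1 exception. Of 23 tested, 22 were higher in liver, 19 of them without overlap, with a median of 7.43. HNF4A, a master regulator of hepatocyte genes, had 398.5 to 1047 CPM in liver (median 610.4) and 0 to 0.801 CPM in adipose (median 0), a log2 fold change of 13.20 ± 0.20. NR0B2, the repressor of bile acid synthesis, FOXA2, a pioneer factor, and NR1H4, the bile acid receptor, were at 13.35 ± 0.13, 12.94 ± 0.11 and 12.37 ± 0.15. GATA6 alone went the other way, at -1.11 ± 0.09, with ranges that overlapped.

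**Figure D2:**
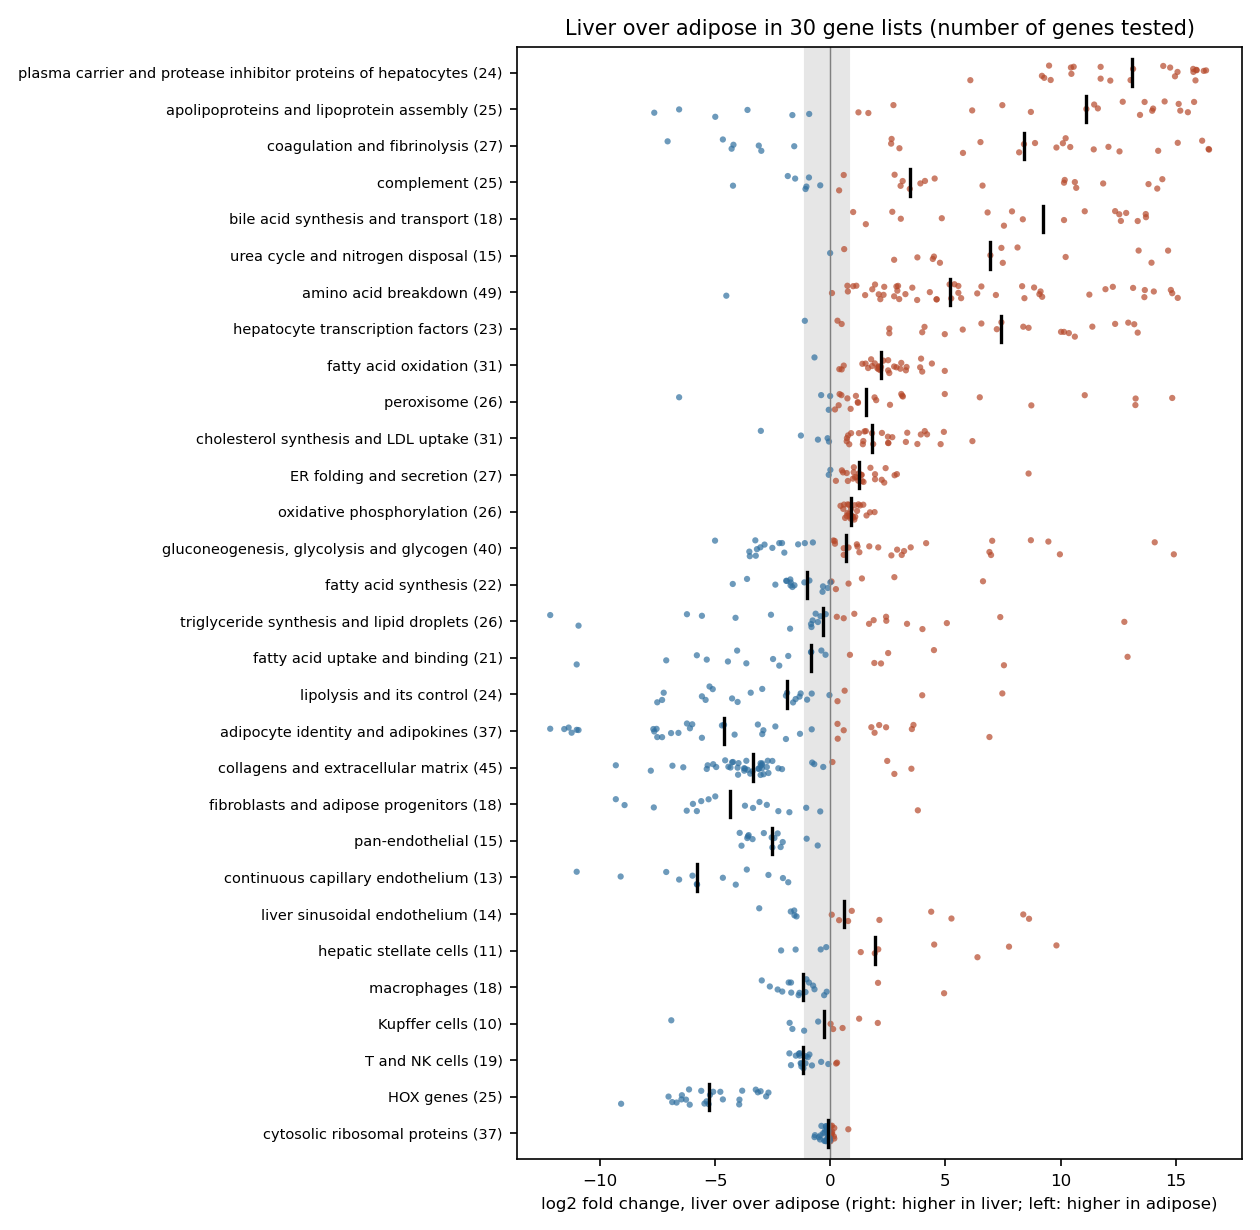
Log2 fold changes, liver over adipose, of the tested genes of 30 gene lists; a dot is 1 gene, coloured by sign, the black tick is the median of the list and the grey band holds the middle 50% of all tested genes. Lists of hepatocyte products and metabolism lie to the right, and glucose and lipid lists spread over both sides. The matrix, fibroblast, general endothelial, continuous capillary and HOX lists lie to the left. The medians of the stellate cell and sinusoidal endothelium lists lie to the right, at 1.93 and 0.57.

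Genes of glucose metabolism were divided between the tissues. Of 40 genes of gluconeogenesis, glycolysis and glycogen, 24 were higher in liver and 15 higher in adipose, with a median of 0.68 that turned to -0.7 on library totals. Among these, genes of glucose release and glycogen storage were named on the liver side. G6PC, the phosphatase that frees glucose, had 112.3 to 2085 CPM in liver (median 693.9) and 0 to 1.04 CPM in adipose (median 0), a log2 fold change of 14.09 ± 0.22. GYS2, the liver glycogen synthase, was at 9.97 ± 0.23. PCK1, the cytosolic phosphoenolpyruvate carboxykinase, serves glucose synthesis in liver and glycerol synthesis in adipocytes. It had 432.5 to 12666 CPM in liver (median 4880) and 1.11 to 404.6 CPM in adipose (median 39.1), without overlap and with a fold of 121. The mitochondrial form PCK2 was at 3.10 ± 0.09.

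Different members of the glucose transporter family were high in each tissue. SLC2A2, the high-capacity transporter of hepatocytes, had 458.6 to 1781 CPM in liver (median 1141) and 0 to 2.08 CPM in adipose (median 0), a log2 fold change of 14.57 ± 0.24. SLC2A4, the insulin-responsive transporter, had 0.458 to 28.2 CPM in liver (median 1.68) and 30.5 to 537.3 CPM in adipose (median 135.4), a log2 fold change of -6.00 ± 0.13. Neither overlapped between the tissues. SLC2A9, a urate and sugar carrier, was at 5.67 ± 0.13.

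HK1 and HK2, hexokinases of most tissues, were higher in adipose. HK2 had 0.0762 to 3.59 CPM in liver (median 1.21) and 2.72 to 67.6 CPM in adipose (median 14.1), at -3.52 ± 0.12, with slightly overlapping ranges and all 95 animals higher in adipose. HK1 had 4.03 to 16.4 CPM in liver (median 9.12) and 53.2 to 154.6 CPM in adipose (median 88.2), at -3.26 ± 0.07 without overlap.

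At the end of glycolysis the isoforms parted. PKLR, the liver and red cell pyruvate kinase, had 20.8 to 477.6 CPM in liver (median 160.5) and 0 to 1.34 CPM in adipose (median 0.354), a fold of 419. PKM, the form of most other tissues, was 9.42-fold higher in adipose, in 94 of 95 animals. LDHB, a lactate dehydrogenase subunit, was at -5.01 ± 0.13. LDHA, the other subunit, was 2.26-fold higher in liver, but it turned to -0.21 on the log2 scale with library totals. PYGL, the liver glycogen phosphorylase, was at 3.49 ± 0.04 and PYGB, the brain form, at -2.86 ± 0.05.

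Over all isoform families examined, 19 of 23 had both forms tested. In 12 of the 19 the form listed as the liver one was higher in liver and the other form higher in adipose. In 4 both were higher in liver, and in 3 one form did not pass the test. Of families not described elsewhere, MAT2A, the general methionine adenosyltransferase, was at 0.07 ± 0.04 (adjusted p = 0.103). TFRC, the transferrin receptor of most cells, was at 0.78 ± 0.06, or at -0.61 with library totals. The parting was widest for the fatty acid binding proteins: FABP1 had 136.1 to 2287 CPM in liver (median 429.4) and 0 to 0.521 CPM in adipose (median 0.0338), and FABP4 had 0 to 22.9 CPM in liver (median 1.17) and 834 to 7411 CPM in adipose (median 3287). The log2 fold changes were 12.91 ± 0.17 and -11.02 ± 0.26. The nuclear receptors PPARA, which drives fatty acid oxidation, and PPARG, which drives adipocyte formation, were at 4.09 ± 0.08 and -4.62 ± 0.10. CIDEB and CIDEC, which act in lipoprotein lipidation and droplet fusion, were at 5.06 ± 0.06 and -10.94 ± 0.19. CIDEB had no count in any of the 30 batch 1 libraries, so its value rests on batch 2. The fatty acid transport proteins SLC27A5 and SLC27A1 were at 7.54 ± 0.08 and -2.22 ± 0.05, and the lipins LPIN2 and LPIN1, which make diacylglycerol, at 3.33 ± 0.08 and -4.12 ± 0.10.

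**Figure D3:**
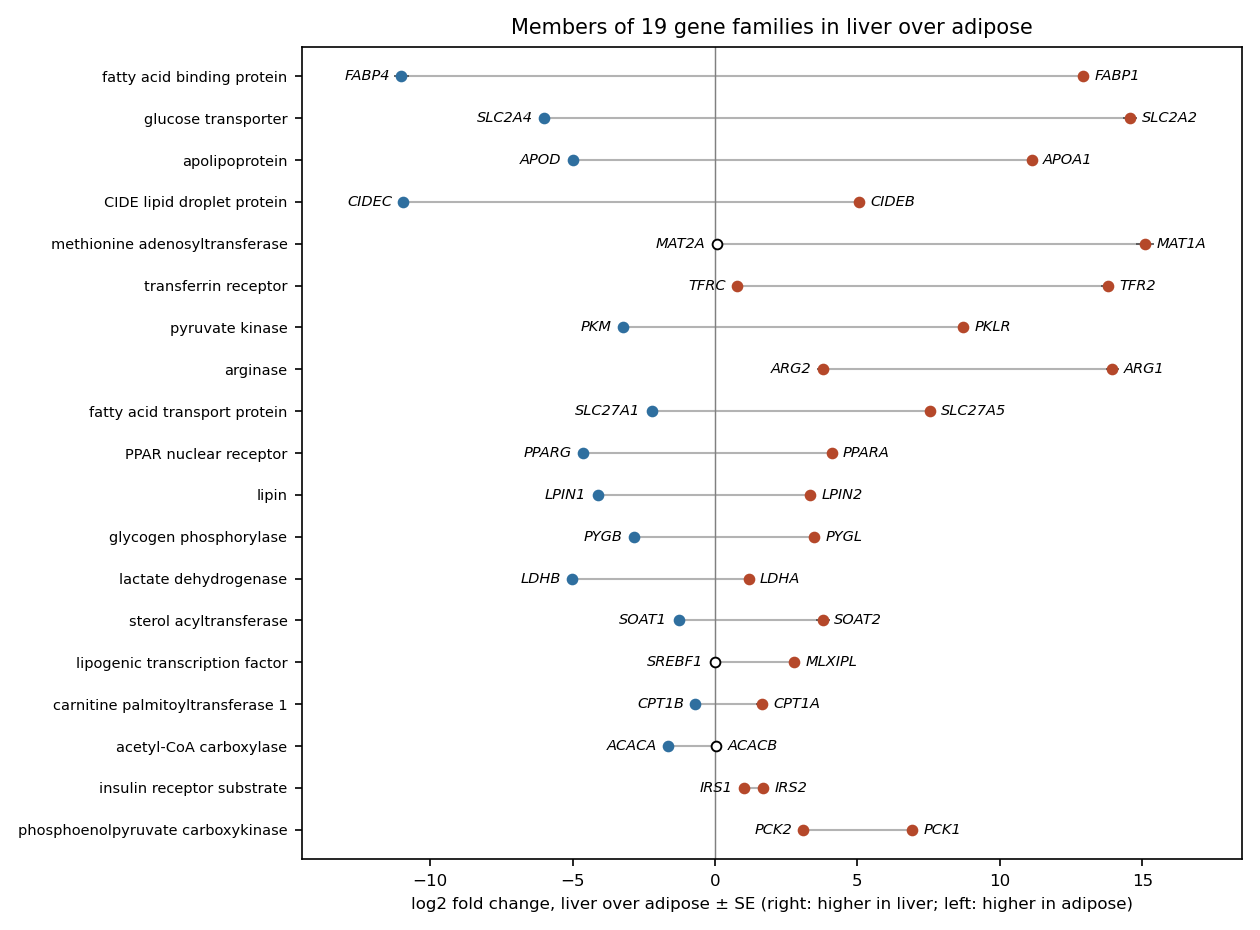
Log2 fold changes, liver over adipose, of both members of 19 gene families, with bars for the SE; a line joins the members, red dots are higher in liver, blue dots higher in adipose, and hollow dots (SREBF1, ACACB, MAT2A) did not pass the test. In 12 families both members passed the test and lie on opposite sides of 0.

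Adipocyte genes were the reverse of the plasma proteins. Of 37 genes of adipocyte identity and adipokines, 27 were higher in adipose and 10 in liver, with a median of -4.62. LEP, which encodes the satiety hormone leptin, had 0 to 1.58 CPM in liver (median 0) and 1.7 to 1943 CPM in adipose (median 188.4), a log2 fold change of -11.37 ± 0.24. ADIPOQ, which encodes adiponectin, had 0 to 2.21 CPM in liver (median 0.0847) and 76.7 to 1681 CPM in adipose (median 463.6), at -11.24 ± 0.21. In batch 1 LEP and ADIPOQ were at -7.79 and -8.99, and in batch 2 at -11.65 and -12.21. The largest difference was that of CIDEA, a droplet protein also known from brown fat, at -12.17 ± 0.21, followed by TRARG1, a trafficking regulator of SLC2A4, at -11.56 ± 0.23. Some adipokine genes were liver genes here: RARRES2, which encodes chemerin, had 515.4 to 1627 CPM in liver (median 838) and 37 to 168.5 CPM in adipose (median 70.6), at 3.61 ± 0.05 without overlap. SPX, which encodes spexin, was at 3.54 ± 0.12 and PNPLA3, a droplet hydrolase, at 2.42 ± 0.14.

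The thermogenic genes gave no single picture. UCP1, the uncoupling protein of brown fat, did not reach the count needed for the test. Of 9 brown and beige adipocyte genes tested, 7 were higher in adipose and 2 in liver. EBF2, a brown precursor factor, DIO2, which activates thyroid hormone, and CKMT2, a mitochondrial creatine kinase, were at -7.69 ± 0.15, -5.56 ± 0.20 and -5.10 ± 0.28. For CKMT2 the batches gave -3.5 in batch 1 and -5.54 in batch 2. EBF2 was at -5.57 in batch 1 and -6.46 in batch 2, both smaller in size than its fold over all animals. Its liver median was 0 CPM in both batches. The liver ones were GK, glycerol kinase, at 4.88 ± 0.06 and PPARGC1A, a coactivator that also serves gluconeogenesis, at 3.60 ± 0.11.

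Lipolysis genes leaned to adipose, with 19 of 24 higher there and 4 higher in liver. LIPE, the hormone-sensitive lipase, had 1.61 to 19.4 CPM in liver (median 5.4) and 68 to 2755 CPM in adipose (median 913.1), a log2 fold change of -7.31 ± 0.16. PLIN1, the droplet coat that gates lipolysis, was at -5.58 ± 0.13, HCAR1, the lactate receptor that restrains it, at -7.24 ± 0.16, and PRKAR2B, a regulatory subunit of protein kinase A, at -5.42 ± 0.16. CES1 and LIPG, a carboxylesterase and the endothelial lipase, were the liver members, at 3.99 ± 0.06 and 7.47 ± 0.17. In the uptake list 14 of 21 genes were higher in adipose and 7 in liver. FABP5, another binding protein, and the caveolar genes CAV1 and CAVIN1 were at -7.13 ± 0.15, -5.80 ± 0.10 and -5.37 ± 0.08, and ACSL1, which activates long-chain fatty acids, was at 2.51 ± 0.12. PLIN4, a droplet coat, was at -6.23 ± 0.17, and in liver PLIN5, the droplet coat of oxidative tissues, was at 4.0 ± 0.14, TM6SF2, which aids lipoprotein lipidation, at 7.38 ± 0.20 and HSD17B13, a hepatocyte droplet protein, at 12.77 ± 0.16.

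Genes of fatty acid synthesis were more often higher in adipose, and several varied widely between animals. Of 22 genes, 14 were higher in adipose, 5 in liver and 3 did not pass the test, with a median of -1.02. FASN, fatty acid synthase, had 28 to 7444 CPM in liver (median 117.1) and 48.3 to 25615 CPM in adipose (median 1843). The ranges overlapped widely, yet 94 of 95 animals had more in adipose, and the log2 fold change was -3.62 ± 0.17 (adjusted p = 1.84e-38), or 12.3-fold. ACLY, which supplies cytosolic acetyl-CoA, had 22 to 65.2 CPM in liver (median 39.4) and 61.5 to 3808 CPM in adipose (median 99.1), at -1.74 ± 0.12. Over animals its log2 CPM had an SD of 0.29 in liver and 1.30 in adipose. SCD, which makes monounsaturated fatty acids, had 1.27 to 2179 CPM in liver (median 41.6) and 1.96 to 14012 CPM in adipose (median 205.3), at -1.72 ± 0.27 with 70 of 95 animals higher in adipose. Its SDs were 2.24 in liver and 3.18 in adipose, the widest of the lipogenic genes plotted by animal.

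The carboxylases and the lipogenic factors gave another order. ACACA, the cytosolic acetyl-CoA carboxylase, was at -1.65 ± 0.11. ACACB, the mitochondrial form, had 257.7 to 1348 CPM in liver (median 587.4) and 117.3 to 2004 CPM in adipose (median 558.1), at 0.05 ± 0.08 (adjusted p = 0.562). MLXIPL, the carbohydrate-response factor ChREBP, had 709.3 to 3557 CPM in liver (median 1405) and 36.4 to 650.5 CPM in adipose (median 217.9), a 6.86-fold difference without overlap. SREBF1, the sterol-response factor that drives lipogenesis under insulin, had 50.3 to 1759 CPM in liver (median 99.0) and 26.3 to 1061 CPM in adipose (median 113.8), at -0.00 ± 0.08 (adjusted p = 0.966). With library totals or upper quartile factors SREBF1 passed the test toward adipose. ELOVL2, an elongase of polyunsaturated fatty acids, was the member most strongly in liver, at 6.63 ± 0.12.

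**Figure D4:**
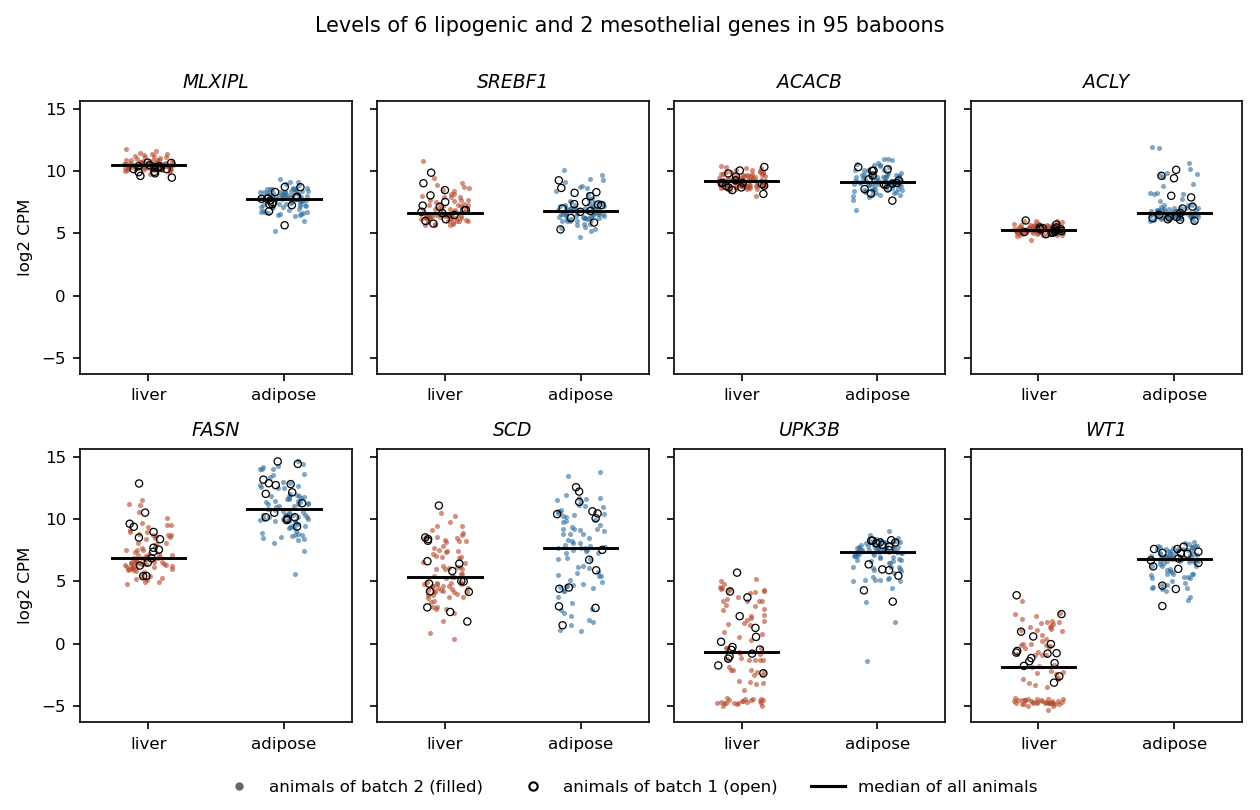
Log2 CPM by library of MLXIPL, SREBF1, ACACB, ACLY, FASN, SCD, UPK3B and WT1, with liver at the left and adipose at the right of each panel (open circles, batch 1; filled, batch 2; line, median of 95). MLXIPL does not overlap between the tissues, SREBF1 and ACACB overlap throughout, ACLY is narrow in liver and long-tailed in adipose, and UPK3B and WT1 spread over the whole low range in liver.

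Cholesterol genes were higher in liver for 26 of 31, with 4 higher in adipose and a median of 1.81. EBP, a sterol isomerase, had 221.2 to 681.8 CPM in liver (median 363) and 8.87 to 30.6 CPM in adipose (median 13.3), at 4.79 ± 0.05 without overlap, and MSMO1, a sterol methyl oxidase, was at 4.20 ± 0.08. NPC1L1, the cholesterol uptake protein, which human liver also holds, was at 6.17 ± 0.12. MYLIP, a ubiquitin ligase, was the opposite, at -3.02 ± 0.06 without overlap. Of the sterol acyltransferases, SOAT2 was at 3.78 ± 0.25 and SOAT1 at -1.28 ± 0.09.

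Genes of fatty acid oxidation were higher in liver with 1 exception. Of 31 such genes, 30 were higher in liver and 27 of them by at least 2-fold, with a median of 2.2. EHHADH, the peroxisomal bifunctional enzyme, had 395.2 to 1327 CPM in liver (median 757.9) and 11.8 to 98 CPM in adipose (median 23.0), at 4.97 ± 0.09. CROT, ACAD11 and ACOX2, enzymes of acyl transfer, dehydrogenation and peroxisomal oxidation, were at 4.41 ± 0.05, 3.99 ± 0.04 and 3.94 ± 0.06. CPT1A, the mitochondrial gate of liver, had 12.7 to 1019 CPM in liver (median 163.3) and 11.2 to 67.3 CPM in adipose (median 40.3), at 1.64 ± 0.19 with 73 of 95 animals higher in liver. Its SD over animals was 1.80 in liver and 0.57 in adipose. On library totals CPT1A was at 0.25 and did not pass the test (adjusted p = 0.177). CPT1B, the muscle form, was the one exception of the list, at -0.69 ± 0.07.

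Ketone bodies are made in liver and used elsewhere, and of 9 genes of the pathway 6 were higher in liver and 3 in adipose. BDH1, the mitochondrial dehydrogenase of ketone bodies, had 24 to 162.5 CPM in liver (median 77.6) and 0.749 to 26.7 CPM in adipose (median 7.46), at 3.41 ± 0.11, and BDH2, a related cytosolic dehydrogenase, was at 2.88 ± 0.05. OXCT1, the enzyme that starts ketone use, had 0.262 to 8.36 CPM in liver (median 1.63) and 32.8 to 171.5 CPM in adipose (median 82.7), or 44.9-fold more in adipose without overlap.

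Genes of mitochondria, peroxisomes and the secretory pathway were also more often higher in liver. All 26 oxidative phosphorylation genes tested were higher in liver, 10 of them by at least 2-fold, with a median of 0.91. That direction rests on the scaling, since the median was -0.48 with library totals, with 2 genes higher in liver and 22 in adipose. The 4 succinate dehydrogenase subunits were the highest of the list: SDHB had 152.4 to 327.2 CPM in liver (median 233.9) and 39.7 to 162.2 CPM in adipose (median 59.2), at 1.92 ± 0.05, with SDHA at 1.72 ± 0.05, SDHD at 1.57 ± 0.12 and SDHC at 1.43 ± 0.05. On library totals SDHC and SDHD did not pass the test.

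Of 26 peroxisome genes, 22 were higher in liver and 2 in adipose, with a median of 1.56. HAO1 and HAO2, oxidases of hydroxy acids, were at 13.26 ± 0.18 and 13.25 ± 0.20, and ABCD2, a transporter of very long-chain fatty acids, was at -6.57 ± 0.14. Of 27 genes of folding and export in the endoplasmic reticulum, 25 were higher in liver and 1 in adipose, with a median of 1.24 that turned to -0.15 on library totals. P4HB, protein disulfide isomerase, was 5.29-fold higher in liver without overlap, and XBP1, the factor that expands the secretory pathway, was at 2.79 ± 0.06. CREB3L3, a membrane-bound factor of hepatocytes, was at 8.61 ± 0.15. Of 37 cytosolic ribosomal protein genes, none differed by 2-fold. By the test without a fold 21 were higher in adipose, 4 were higher in liver and 12 did not pass, with a median of -0.11. In batch 1, 3 were higher in adipose and 0 in liver.

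The receptors for insulin and glucagon were both higher in liver. INSR, the insulin receptor, had 8.29 to 32.4 CPM in liver (median 17.3) and 1.96 to 12.4 CPM in adipose (median 4.63), at 1.79 ± 0.05 in all 95 animals. GCGR, the glucagon receptor, had 160.9 to 596.4 CPM in liver (median 282.3) and 0 to 3.07 CPM in adipose (median 0.309), a fold of 780. IRS2 and IRS1, the adaptors of the insulin receptor, were at 1.70 ± 0.08 and 1.02 ± 0.06, though IRS1 was at -0.36 with library totals. GRB14, an inhibitor of the insulin receptor, was at 7.88 ± 0.14. The growth factor binding proteins divided: IGFBP1 and IGFALS, which are liver products in the circulation, were at 11.24 ± 0.29 and 9.68 ± 0.13, and IGFBP6, IGFBP5 and IGFBP7 at -4.50 ± 0.09, -2.46 ± 0.08 and -2.20 ± 0.07. Over the list 17 of 28 genes were higher in liver and 9 in adipose.

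Of 21 genes for secreted metabolic hormones, 14 were higher in liver and 6 in adipose. LECT2 and INHBC, a secreted hepatokine and an activin subunit, were at 13.33 ± 0.13 and 12.15 ± 0.14. FNDC5, the irisin precursor, INHBB, another activin subunit, and BMP4 were at -2.63 ± 0.09, -1.98 ± 0.14 and -1.49 ± 0.07.

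Of 37 nuclear receptors, 19 were higher in liver and 16 in adipose. Beside HNF4A, NR1H4 and NR0B2, the orphan receptor HNF4G was at 10.36 ± 0.13. On the adipose side PGR, the progesterone receptor, VDR, the vitamin D receptor, and RARG, a retinoic acid receptor, were at -4.47 ± 0.19, -4.01 ± 0.15 and -2.61 ± 0.06. Clock genes were split as well, with 8 of 15 higher in liver and 6 in adipose. ARNTL, the BMAL1 activator, was at 3.27 ± 0.09, NPAS2, its partner, at 2.12 ± 0.13 and HLF, an output factor, at 2.54 ± 0.05, while the repressors BHLHE41 and NR1D1 were at -4.84 ± 0.13 and -2.30 ± 0.10. The sources used here do not give the hour of each biopsy, so time of day and tissue cannot be told apart for these genes.

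Genes of body position that could be tested were higher in adipose. Of 39 HOX genes counted, 25 reached the count needed for the test. All 25 were higher in adipose, 18 of them without overlap, with a median of -5.29. HOXB8, HOXC5, HOXC6 and HOXD3 had a liver median of 0 CPM in both batches. Such genes pass the count filter through adipose alone, so their direction was set in advance. HOX genes encode the factors that set position along the body axis and keep being expressed in mesoderm-derived cells. HOXB8 had 0 to 0.295 CPM in liver (median 0) and 3.15 to 28.3 CPM in adipose (median 9.48), at -9.09 ± 0.12. HOXC6 was at -7.03 ± 0.18, with -6.04 in batch 1 and -7.14 in batch 2, and HOXA5 was at -5.29 ± 0.12, with -3.99 in batch 1 and -5.62 in batch 2. Liver libraries gave HOXB8 counts in only 9 of 95 animals, 14 counts in all, so its fold rests on few counts. Of 26 mesoderm and depot factors counted, 17 were tested, and 16 of these were higher in adipose and none in liver. Among them were EMX2 at -8.50 ± 0.15 and PRRX1, a mesenchymal factor, at -4.92 ± 0.13. EMX2 was at -6.46 in batch 1 and -7.44 in batch 2, with a liver median of 0 CPM in both.

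WT1, a factor of mesothelium and visceral fat in the mouse, had 0 to 14.8 CPM in liver (median 0.215) and 8.11 to 293.8 CPM in adipose (median 114.7), at -7.50 ± 0.28. UPK3B, a mesothelial membrane protein, had 0 to 52.2 CPM in liver (median 0.597) and 0.36 to 543.5 CPM in adipose (median 163.6), at -6.49 ± 0.38. Mesothelium is the sheet that covers organs and fat inside the body cavities, and 7 of its 10 tested genes were higher in adipose and 3 in liver. Liver libraries varied among themselves: UPK3B was over 5 CPM in 25 of them and under 1 CPM in 54. In all 25 of the libraries with UPK3B over 5 CPM, BNC1 and ALOX15 were over 1 CPM, and in 20 of them WT1 was too. The 5 mesothelial markers summed to 0.00868 to 0.0486% of liver counts (median 0.0198%) and 0.000635 to 0.15% of adipose counts (median 0.0492%), with 77 of 95 animals higher in adipose. Almost all of the liver sum was PRG4, which encodes the lubricating protein lubricin and had 89.7 to 845.1 CPM in liver (median 317.9) and 3.47 to 528.6 CPM in adipose (median 74.9), at 2.14 ± 0.15. The other 4 markers summed to 0 to 0.00537% of liver counts (median 0.000142%) and 0.00012 to 0.104% of adipose counts (median 0.0345%), and all 95 animals had more in adipose. The part of mesothelium in other differences was not tested.

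**Figure D5:**
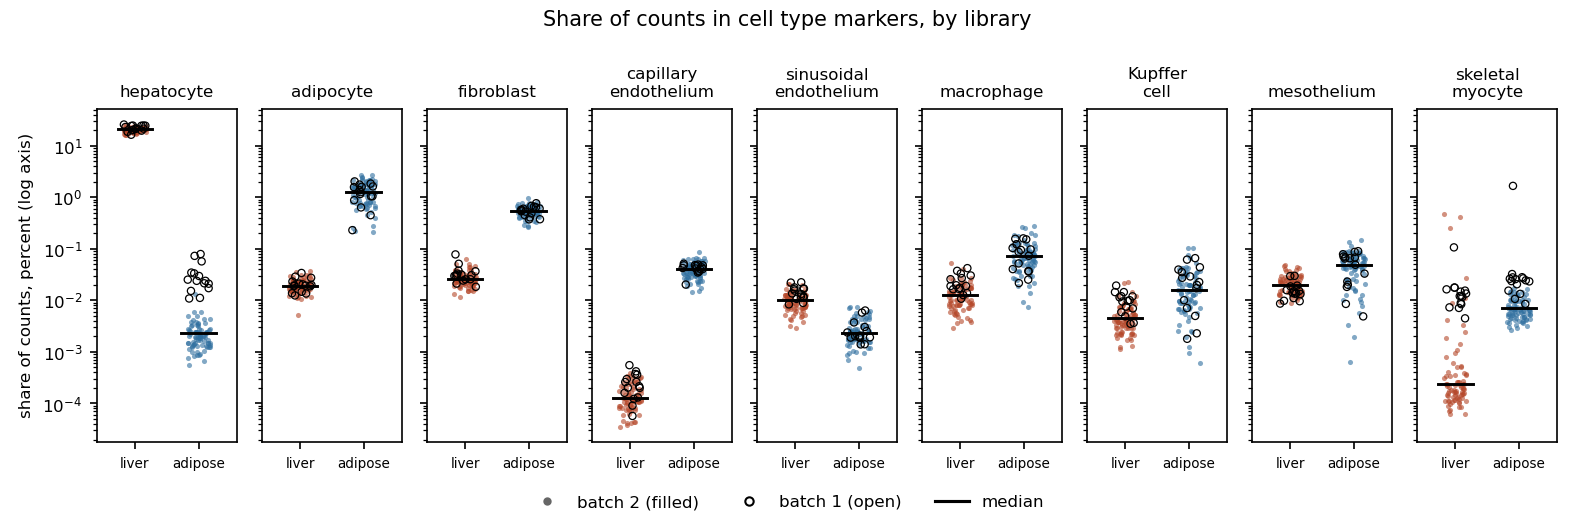
Percent of counts, on a log axis, taken by the markers of 9 cell types in each library, liver at the left and adipose at the right of each panel (open circles, batch 1; filled, batch 2; line, median of 95). Hepatocyte and sinusoidal endothelial markers are higher in every liver library than in the same animal's adipose library, and adipocyte, fibroblast and capillary endothelial markers are lower in every one.

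Connective tissue genes were higher in adipose. Of 45 collagen and matrix genes, 41 were higher in adipose, 22 of them without overlap, and 3 in liver, with a median of -3.38. COL5A3, a fibrillar collagen chain, had 0.429 to 6.63 CPM in liver (median 1.45) and 87.9 to 1634 CPM in adipose (median 353.2), at -7.80 ± 0.16. MFAP5, a microfibril protein, was at -9.32 ± 0.24, with -6.47 in batch 1 and -9.39 in batch 2, and LAMA4 and COL15A1, basement membrane proteins, were at -6.39 ± 0.12 and -6.86 ± 0.16. The 3 exceptions were COL18A1, the endostatin precursor, FN1, which encodes fibronectin, a plasma protein of hepatocytes, and BGN, the proteoglycan biglycan, at 11.4-fold, 6.89-fold and 5.55-fold higher in liver. Of 18 fibroblast and progenitor genes 17 were higher in adipose, with SFRP2, a Wnt modulator, at -8.94 ± 0.20 and GSN, gelsolin, at -7.67 ± 0.14. DPP4, a progenitor surface peptidase that hepatocytes also carry, was the exception at 3.80 ± 0.08. All 11 smooth muscle and pericyte genes were higher in adipose, among them CNN1 at -5.58 ± 0.24 and CSPG4 at -5.22 ± 0.14. Stellate cells are the pericytes of the liver, and 7 of their 11 listed genes were higher in liver, led by BMP10 at 9.82 ± 0.08, COLEC10 at 7.76 ± 0.11 and COLEC11 at 6.39 ± 0.10. Adipose held 6 counts of BMP10 in all.

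Endothelial genes differed by vessel type. All 15 general endothelial genes were lower in liver, with PECAM1, an adhesion molecule, having 20.1 to 90.7 CPM in liver (median 40.6) and 258.3 to 989.7 CPM in adipose (median 494.9), at -3.58 ± 0.08. SOX17, ROBO4 and EMCN were at -3.94 ± 0.11, -3.86 ± 0.09 and -3.61 ± 0.08. All 13 genes of continuous capillaries were higher in adipose too, with MEOX1, a homeobox factor, at -9.11 ± 0.15. Liver sinusoids are lined by an endothelium with pores and scavenger receptors, and 8 of 14 of its genes were higher in liver and 5 in adipose, with a median of 0.57 that turned to -0.8 with library totals. STAB2, a scavenger receptor, had 22.1 to 108.5 CPM in liver (median 62.2) and 0.263 to 11.4 CPM in adipose (median 2.86), at 4.38 ± 0.11. OIT3, GATA4, the factor of sinusoidal identity in the mouse, and DNASE1L3 were at 8.63 ± 0.17, 8.38 ± 0.14 and 5.26 ± 0.12. LYVE1, a hyaluronan receptor of sinusoids, lymphatics and some macrophages, was on the other side, at -1.72 ± 0.09.

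Macrophage genes were mostly higher in adipose, with 15 of 18 higher there, 2 in liver and a median of -1.21. The 6 macrophage markers took 0.00289 to 0.0525% of liver counts (median 0.0126%) and 0.00756 to 0.273% of adipose counts (median 0.0727%), with 91 of 95 animals higher in adipose (permutation p = 1e-05, the smallest the sign flips can give). LYZ, lysozyme, and ITGAM, an integrin of myeloid cells, were at -2.63 ± 0.10 and -2.09 ± 0.12. CD14, the endotoxin co-receptor, which hepatocytes also make, had 356.4 to 1828 CPM in liver (median 1023) and 5.13 to 146.4 CPM in adipose (median 33.3), or 30.8-fold more in liver without overlap.

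Genes used as Kupffer cell markers were not, as a list, higher in liver. Kupffer cells are the resident macrophages of the sinusoids. Of 10 genes on that list 5 were higher in adipose and 4 in liver, with a median of -0.26, or 0.03 in batch 1 alone. TIMD4, a receptor for dying cells that marks resident macrophages, had 0 to 0.692 CPM in liver (median 0) and 0.0954 to 32.1 CPM in adipose (median 4.85), at -6.91 ± 0.18 with the same sign in all 95 animals. The size of that fold rests on few liver counts: it was 120-fold toward adipose by edgeR and 66.1-fold by limma voom, which gave 46.9-fold in batch 1 and 71.3-fold in batch 2. VSIG4, a complement receptor, was at -1.14 ± 0.14, but did not pass the test in batch 1. HMOX1, haem oxygenase, and SLC40A1, the iron exporter, were higher in liver at 2.06 ± 0.11 and 1.25 ± 0.05, and SLC40A1 turned to -0.14 with library totals. The 4 markers summed to a median of 0.00465% of liver counts and 0.0158% of adipose counts, with 78 of 95 animals higher in adipose.

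The list of lipid-associated macrophage genes, found in obese fat, had 9 of 16 higher in adipose and 6 in liver. LPL and LGALS3, a galectin, at -4.40 ± 0.11, were adipose genes, and CHIT1, a chitinase of foamy macrophages, was at -3.60 ± 0.26. LPL is also counted above among the genes that define adipocytes, so its level here does not report macrophages alone. ACP5, an acid phosphatase, APOC1, an apolipoprotein, and CTSL, a cathepsin, were at 7.70 ± 0.13, 6.16 ± 0.18 and 2.78 ± 0.03, and hepatocytes are known to make APOC1 as well.

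Lymphoid and granulocyte genes were also more often higher in adipose. Of 19 T and NK cell genes 16 were higher in adipose and 2 in liver, with CD4 at -1.78 ± 0.11 and PRF1, perforin, at -1.37 ± 0.08. B and plasma cell genes were divided as a list, with 3 of 11 in each direction and 5 not past the test. By at least 2-fold 1 was higher in liver, CD22, a B cell lectin, at 3.28 ± 0.14, and 1 was higher in adipose. The sum of 4 B and plasma cell markers leaned to adipose, with medians of 0.0045% of liver counts and 0.0192% of adipose counts. It was higher in adipose in 83 of 95 animals (permutation p = 1e-05, the smallest the sign flips can give). All 6 mast cell genes and all 6 neutrophil genes tested were higher in adipose, with CPA3, a mast cell protease, at -6.04 ± 0.18 and S100A8, calprotectin's smaller chain, at -3.43 ± 0.22. HBB, beta globin, was at -3.25 ± 0.15, with 93 of 95 animals higher in adipose, and the 2 erythroid markers had medians of 0.00337% in liver and 0.0844% in adipose. The part of blood left in the pieces in these immune differences was not tested.

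Markers of skeletal muscle were low in most liver libraries and present in every adipose library. As a list the muscle genes were divided: of 8 tested, 4 were higher in liver and 4 in adipose, with a median of 0.13. TNNT3, a fast-muscle troponin, had 0 to 869.3 CPM in liver (median 0.293) and 9.84 to 907.2 CPM in adipose (median 35.9). TTN, another muscle gene, leaned to liver, at 1.77 in batch 2 and at 0.56 in batch 1, where it did not pass the test. The marker sum was 6.14e-05 to 0.472% in liver (median 0.000237%) and 0.00271 to 1.67% in adipose (median 0.00712%). The liver median was 0.0122% in batch 1 and 0.000195% in batch 2, and the adipose median 0.0246% and 0.0066%. The sum was higher in adipose in 88 of 95 animals, yet the mean difference did not pass the permutation test (p = 0.791), and 4 liver libraries and 1 adipose library exceeded 0.1%. Bile duct markers, which sit in a minor cell type of the liver, had medians of 0.000593% in liver and 0.000899% in adipose (permutation p = 0.0294, or 0.731 in batch 1). KRT19, a bile duct gene shared with mesothelium, was not among these 4 markers and was at -4.66 ± 0.23. EPCAM, which was among them, was at 4.63 ± 0.15.

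Several of the differences sat side by side on chromosomes. In the RefSeq gene order of the Panubis1.0 assembly, 22 runs of at least 4 consecutive tested genes were 8-fold or more higher in liver, and 11 such runs were higher in adipose. Over all tested genes 21.4% were called at 2-fold toward liver and 26.5% toward adipose. The share at 8-fold and the number of runs that a shuffled order would give were not worked out. These counts of runs therefore do not show clustering beyond that background, and some runs consist of LOC names alone. The longest liver run had 11 genes around the SERPINA cluster of protease inhibitors (SERPINA1, SERPINA3, SERPINA4, SERPINA5, SERPINA6, SERPINA10 and SERPINA11), and another held the 4 genes APOA1, APOC3, APOA4 and APOA5. The UGT1A region was a liver run of 6 genes as well. The longest adipose runs were 8 genes in the HOXD cluster and 8 in the HOXB cluster. A kallikrein run of 6 genes, KLK15, KLK6, KLK7, KLK8, KLK10 and KLK11, was higher in adipose throughout. KLK7, a secreted serine protease, had 0 to 13.6 CPM in liver (median 0.0749) and 20.9 to 262.6 CPM in adipose (median 92.1), at -9.03 ± 0.19. Neighbours with shared sequence can share reads, which bears on the UGT, SERPINA and kallikrein runs.

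Among the 15 largest differences toward adipose, several genes are less often named for fat. CRTAC1, a cartilage matrix protein, had 0 to 0.829 CPM in liver (median 0) and 4.54 to 440.8 CPM in adipose (median 86.2), at -11.01 ± 0.16. TIMP4, a metalloproteinase inhibitor, S100B, a calcium-binding protein known from glia and also from adipocytes, and MYOC, myocilin, were at -9.72 ± 0.15, -9.03 ± 0.15 and -8.98 ± 0.17. SLC7A10, an amino acid carrier, TSHR, the thyrotropin receptor, and ACKR1, the chemokine receptor of venules, were at -8.82 ± 0.16, -8.70 ± 0.21 and -8.64 ± 0.17. None of these 7 genes overlapped between the tissues.

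Animals differed a little more in liver than in adipose. Over 9589 genes with a mean of at least 5 CPM in both tissues, the SD of log2 CPM over animals had a median of 0.337 in liver and 0.292 in adipose, and it was higher in adipose for 2941 genes (30.7%). Within batches the medians were 0.323 in liver and 0.261 in adipose for batch 1, and 0.323 in liver and 0.281 in adipose for batch 2. The genes whose difference varied most between animals included OPRPN, SEZ6L2 and TMEM132C beside mesothelial and muscle genes. OPRPN, a secreted opiorphin precursor, had 0 to 219.7 CPM in liver (median 14.8), with 18 liver libraries at 0 and 68 over 5 CPM, and no count in any of the 95 adipose libraries, so no fold is given. SEZ6L2, a membrane protein known from neurons, was over 5 CPM in 47 liver libraries and under 1 CPM in 29, and it was at 2.65 ± 0.37 with 66 of 95 animals higher in liver.

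A small set of genes was equal in level within narrow limits. For 1262 of 16580 genes the 95% interval of the log2 fold change lay within 0.2 of 0. ZNF664, PPIA, SREBF1, RPS24 and EIF4A1 were among those nearest to 0 of the well expressed genes. For PPIA and RPS24 the narrow limits rest on batch 2, where the SE was 0.03 for both. In batch 1 their folds were -0.17 ± 0.45 and 0.04 ± 0.23 and did not pass the test. Median liver levels in batch 1 and batch 2 were 17.3 and 134.4 CPM for PPIA and 69.4 and 239.3 CPM for RPS24. EIF4A1, a helicase of translation, had 171.1 to 383.4 CPM in liver (median 253.2) and 159 to 485.1 CPM in adipose (median 254.1), at -0.01 ± 0.03 (adjusted p = 0.796). All 5 passed the test toward adipose with library totals or upper quartile factors, so their near-equal level depends on the scaling.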

How the data were processed

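The authors deposited a table of raw counts per gene for the libraries kept after quality control and another for all libraries. Per the submitters' processing notes, FastQC, STAR 2.7.7a and featureCounts were used; the sources used here do not give the genome build, annotation or strand setting. Per the labels' protocols, a batch of 16 animals was unstranded and read single-end over 50 bases, and a batch of 83 animals was stranded and paired-end. Genes that overlap an antisense partner are therefore uncertain. The labels do not assign animals, so it is an inference that the 15 and 80 animals called batch 1 and batch 2 above belong to these 2 batches. Of 34178 genes, 33824 matched a RefSeq symbol.

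The tissues were compared on these counts with edgeR 4.0.16 (R 4.3.3): filterByExpr (minimum count 10), trimmed mean of M-values scaling, glmQLFit with a common dispersion of 0.0909 from 500 seeded genes, glmQLFTest with the animal as a block, and a Benjamini-Hochberg adjusted p under 0.05. The animal number in the labels pairs the libraries. SEs come from the fold change and F statistic. A prior count of 0.5 was added for the log2 CPM values and their SDs, while the fold fit kept its default prior count. Shares were tested by 100000 two-sided sign flips within animals. limma 3.58.1 (voom) and DESeq2 1.42.0, other scalings, filters, single batches and the table before quality control were alternatives. On simulated counts for this comparison (1500 genes, 200 changed), 38% of changes of 0.2 and 100% of changes of 0.5 on the log2 scale were recovered, with 2.82% false calls. The simulation used a single dispersion, an animal effect equal in both tissues and scaling factors given to the fit. Its rates therefore do not cover errors of scaling or the larger and more numerous differences found here.

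Genes named are the 15 with the largest fold toward each tissue (a symbol that is not a LOC name, a mean of at least 50 CPM in the higher tissue, 95% of animals in 1 direction), the isoform families, up to 4 members of each of 50 gene lists toward each tissue and single members against their list, the 6 of largest spread (at least 20 CPM), the 6 closest to equal (at least 100 CPM) and anchor genes. Genes shown in figures, members of neighbour runs and genes beside these results were named as examples after their values were seen. Some genes that this rule names are not reported here. The members and lists were chosen with earlier results of these data known. The other 376 columns of the first table and 391 of the second, which hold other tissues, times or animals, were not used. No 2 libraries used held identical counts.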

Additional observations from a re-analysis of the deposited data

Results flagged for a closer look

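The 3 liver libraries at 0 years that quality control left out, which are in the counts before quality control alone, carried a strong skeletal muscle signal that no comparison above uses. Skeletal myocyte markers took a median of 15.3% of their counts (range 10.8 to 17.5%), against at most 0.472% in the 95 liver libraries that were kept. Hepatocyte markers took 0.0644 to 0.943% there and at least 16.0% in the kept libraries, and adipocyte markers 0.115 to 0.143% there and at most 0.0366% in the kept libraries. Where this RNA came from was not tested.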

How the results depend on the processing

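Of 303 named genes, 276 kept their direction and their side of the threshold in every alternative that had a value for them (282 had one with the 50 most abundant genes left out and 299 in batch 1). Leaving out the animal block (no replicate block) called 7604 genes toward liver and 7482 toward adipose, against 7699 and 7702 with it; DESeq2 was run without the block. Batch 1 alone called 5699 and 6374 of 15107 genes, and batch 2 alone 7749 and 7662 of 16629. Library totals called 2513 genes toward liver and 13632 toward adipose, or 1629 and 10496 at 2-fold or more. A test against a 2-fold difference called 3289 and 3973. With no filter, limma voom tested 30442 genes and called 18866 toward liver and 9390 toward adipose, or 12183 and 5370 at 2-fold or more. The near balance of the calls thus turned toward liver. Voom adds a small constant to each count before scaling, and the scaling factors were 1.38 lower in liver on the log2 scale. At equal depth a gene at 0 in both tissues therefore takes a higher value in liver. What part this had in the added calls was not tested. With library totals, which move the median of all genes to -1.38, the log2 fold change turned to -0.36 for IRS1, -0.21 for LDHA, -0.14 for SLC40A1, -0.61 for TFRC, -0.02 for SLC25A1, -0.26 for SLC2A10, -0.12 for CDH19 and -0.3 for TTN. TNNI2 turned to 0.25 with no replicate block and to 0.3 with the libraries before quality control, and the cause was not tested. The mean difference in skeletal myocyte share was -0.0113 percentage points (p = 0.791) and turned to 0.00784 in batch 2 (p = 0.382) and 0.434 with the libraries before quality control (p = 0.153). The bile duct share difference of -0.000197 percentage points (p = 0.0294) was -0.000163 in batch 1 (p = 0.731). Leaving out the 5 animals with over 0.1% skeletal myocyte markers, an alternative chosen after seeing the data, gave 7708 and 7714 calls. Depth limits the lowest genes: levels near 0 CPM rest on 0 to a few counts in libraries of 6506614 to 32698163 counts.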
